A study of Mus musculus with 3 samples.

Results

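The mast cells compared here were sorted from mouse skin 1 week after birth and carried a label laid down in the embryo, either in fetal haematopoietic stem cells (fetal HSC) or in early erythro-myeloid progenitors (early EMP). Genes were compared when the authors' table gave them a symbol and at least 1 FPKM (fragments mapped to a gene, scaled by its transcript length and by the library's size) in early EMP, in fetal HSC or in both. That rule kept 11157 of 17613 genes with a symbol, in a table of 20677 entries. The other 6456 genes were below 1 FPKM in both libraries, and 1916 of them were listed at 0 in both. The limit fell between genes whose higher value was 1.00 FPKM and genes whose higher value was 0.99 FPKM. Of the genes kept, 792 were below 1 FPKM in early EMP and 927 below 1 FPKM in fetal HSC, and these passed through the other library alone. The 792 could not count as 2-fold lower in fetal HSC, and the 927 could not count as 2-fold higher. Counts and medians over gene lists below cover the measured members, those that passed this limit, and are descriptions.

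In both groups a pulse of 4-hydroxytamoxifen (4'OHT) given to the pregnant mouse switched on a Cre recombinase, which then marked the cells and their progeny with the fluorescent protein EYFP. The early EMP library came from Csf1rCre/EYFP mice pulsed at embryonic day 8.5, and its column is headed as a control. The fetal HSC library came from Runx1Cre/EYFP mice pulsed at embryonic day 9.5. Both groups shared the mixed C57BL/6xCD1xFVB background and the age of 1 week. A late EMP library, from Runx1Cre/EYFP mice pulsed at embryonic day 8.5, has its values printed beside the others and was not used to choose genes. The cells labelled in each case are those that used the Csf1r or the Runx1 regulatory sequences at the time of the pulse. The driver line therefore differs together with the origin, and the effects of origin, driver line and day of the pulse cannot be told apart. The sources used here do not say how many animals were pooled. Each group had 1 library, so no difference below has a replicate check, and none has a p-value.

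Mast cells are granulated immune cells that settle in the skin and other barrier tissues. They carry the IgE receptor, store histamine and proteases in their granules, and live for long periods in the tissue. The first mast cells of the skin come from yolk sac progenitors, and cells from later haematopoietic waves join or replace them around birth. In bulk libraries of this kind, a higher level can come from more cells that express a gene or from more RNA in each cell, and these cannot be told apart.

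The deposited values gave an implied depth of about 14500000 fragments for early EMP, 15300000 for late EMP and 16900000 for fetal HSC, an imprecise estimate from the steps between low values. The 10 most abundant genes took 39.2% of the summed FPKM in early EMP and 39.2% in fetal HSC. Xist, the RNA of the inactive X chromosome, was at 25.6 FPKM for early EMP, 0.53 for late EMP and 52.0 for fetal HSC. The Y-linked helicase gene Ddx3y was at 20.7, 38.5 and 0.32 FPKM in the same order, and all 8 Y-linked genes compared were at least 2-fold lower in fetal HSC. Sex-linked RNAs thus differed between the libraries, and the part of sex in the other differences was not tested. Csf1r, the gene whose regulatory sequence drives Cre in the early EMP mice, was at 5.70 FPKM for early EMP, 2.54 for late EMP and 1.47 for fetal HSC. Runx1 was at 12.7, 12.3 and 12.5 FPKM.

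Cells of both libraries carried the RNAs of connective tissue mast cells. All 11 defining mast cell markers were measured and all 11 lay within 2-fold between the libraries, with a median difference of -0.23 on the log2(FPKM + 1) scale, which all differences below use and which understates the change of low genes. In what follows, levels given as 3 values are in the order early EMP, late EMP and fetal HSC, and a value in parentheses after them is the log2 difference of fetal HSC over early EMP. Kit, the receptor for stem cell factor, was at 414 FPKM for early EMP, 606 for late EMP and 405 for fetal HSC. The IgE receptor chain gene Ms4a2 was at 214, 245 and 207 FPKM. Among the markers, the largest difference was that of Gata2, a transcription factor of mast cells and their progenitors, at 664, 517 and 359 FPKM (-0.88).

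Most genes differed by less than 2-fold, and those that differed more were split about evenly between the directions. Of 11157 genes, 1922 were at least 2-fold apart (17.2%), with 931 higher in fetal HSC (8.34%) and 991 lower (8.88%). At least 4-fold apart were 239 genes (2.14%), of which 149 were higher and 90 lower. The median difference over all genes was -0.04. Low genes made up much of the count: of 3620 genes whose higher value lay below 5 FPKM, 454 were higher and 527 lower, or 27.1% together. Of 760 genes at 100 FPKM or more, 42 were higher and 28 lower, or 9.21% together. Above 20 FPKM the higher genes outnumbered the lower ones, with 145 against 97 of the 2585 genes between 20 and 100 FPKM. With 5 FPKM added to each value in place of 1, 242 genes were at least 2-fold higher and 152 lower.

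**Figure D1:**
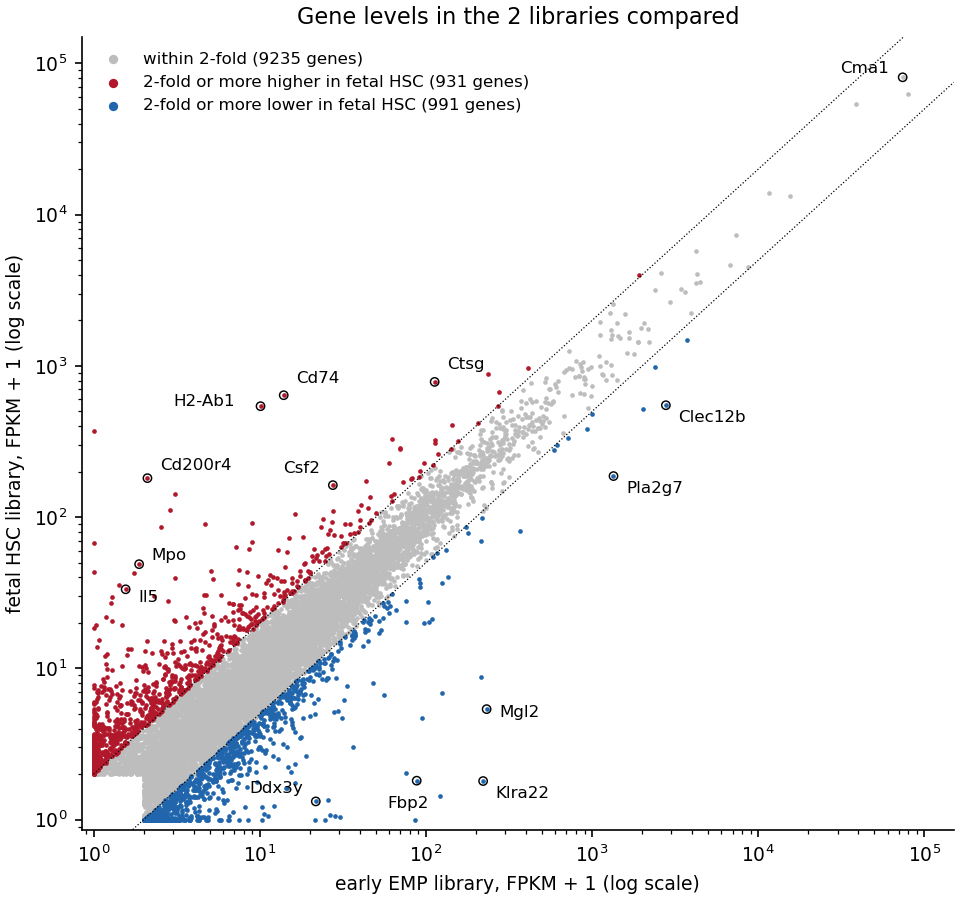
Each point is 1 of 11157 genes, with its level in early EMP on the horizontal axis and in fetal HSC on the vertical axis, both as FPKM + 1 on log scales; dotted lines mark 2-fold. Circled genes are named: Cd200r4, H2-Ab1, Cd74, Mpo, Il5, Csf2 and Ctsg lie above the band, Klra22, Mgl2, Fbp2, Ddx3y, Clec12b and Pla2g7 below it, and Cma1 lies within it.

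MHC class II molecules present peptides from outside the cell to CD4+ T cells. Their alpha and beta chains assemble with the invariant chain Cd74, whose remnant is exchanged for a peptide with the help of H2-DM. The 3 measured class II chains were all over 4-fold higher in fetal HSC, and they were among the largest differences of the comparison. H2-Ab1, a beta chain (gene 14961, GRCm38 chr17:34263227-34269418), was at 9.11 FPKM for early EMP, 63.2 for late EMP and 541 for fetal HSC (5.74). Its partner H2-Aa, an alpha chain (gene 14960, chr17:34282744-34287823), was at 1.87, 22.99 and 111 FPKM (5.28). H2-Eb1, a second beta chain (gene 14969, chr17:34305867-34316674), was at 1.53, 8.59 and 85.6 FPKM (5.10). In each case the late EMP value lay between the other two.

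The level of Cd74 was 12.9 FPKM for early EMP, 84.8 for late EMP and 639 for fetal HSC (5.52), close to the differences of the chains it accompanies. H2-DMa, a chain of the peptide exchanger, was at 1.25, 2.98 and 11.6 FPKM (2.48). The partners of H2-DMa differed less. H2-DMb1 was at 27.7, 21.0 and 33.8 FPKM (0.28), H2-DMb2 at 1.33, 2.74 and 3.57 (0.97), and the inhibitory pair H2-Oa and H2-Ob showed differences of 0.38 and 0.70. The DM pair is therefore unequal in both libraries, with the beta chain H2-DMb1 above the alpha chain in FPKM, a length-scaled level.

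Genes that regulate class II transcription or process its cargo were less uniform. Rfxank, a subunit of the promoter-binding RFX complex, was at 1.72 FPKM for early EMP, 6.52 for late EMP and 5.85 for fetal HSC (1.33), while its partner Rfx5 was at 3.96, 3.78 and 3.45 FPKM (-0.16). Ifi30, a lysosomal thiol reductase, was at 4.95, 8.02 and 14.5 FPKM (1.38). The protease gene Ctss, whose product cuts the invariant chain, was at 11.3, 8.88 and 20.7 FPKM (0.83). Lgmn, another lysosomal protease, went the opposite way at 19.2, 10.8 and 3.81 FPKM (-2.07). The costimulatory genes stayed within 2-fold, with Cd86 at 3.77, 4.15 and 7.12 FPKM (0.77). Over the whole class II list 7 of 18 measured genes were higher and 1 lower, with a median of 0.80 beside -0.04 for all genes. The dendritic and Langerhans cell list, whose cells are rich in class II, had 5 of 16 listed genes measured, with 3 higher, none lower, and a sum of 56.5 FPKM in early EMP and 87.5 in fetal HSC. Most of that sum was Batf, at 51.6 and 63.6 FPKM, and Irf8, a transcription factor of dendritic cells and monocytes, was at 0.21 and 11.5 FPKM. The dendritic cell genes Itgax, Zbtb46 and Clec9a were listed below 1 FPKM in both early EMP and fetal HSC, Itgax and Clec9a at 0 in early EMP, and Siglech was listed at 0 in both. The part of such cells in the class II difference was not tested.

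Promoters of class II genes are known to share an X box and a Y box, to which the RFX and NF-Y complexes bind. The 2 promoters below are shown because they belong to class II chains past 4-fold and each holds a Y box, in capitals. They run 5' to 3' on the strand of the gene from 150 bases before the annotated start, and come from RefSeq on GRCm38.p6. The H2-Aa promoter lies at chr17:34287774-34287973 on the minus strand and that of H2-Eb1 at chr17:34305717-34305916 on the plus strand. The first base of the Y box is 51 bases before the start in H2-Aa and 62 bases before it in H2-Eb1.
H2-Aa: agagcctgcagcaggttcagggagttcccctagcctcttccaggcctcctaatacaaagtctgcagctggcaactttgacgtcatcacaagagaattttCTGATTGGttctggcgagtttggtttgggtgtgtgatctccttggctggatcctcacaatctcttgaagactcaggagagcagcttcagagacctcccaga
H2-Eb1: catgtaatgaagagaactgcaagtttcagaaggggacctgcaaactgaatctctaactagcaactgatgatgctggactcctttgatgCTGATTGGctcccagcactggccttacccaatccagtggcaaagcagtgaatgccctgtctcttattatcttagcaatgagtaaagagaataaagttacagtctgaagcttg
Counted on both strands over 300 bases, the Y box CTGATTGG was found in 3 of 14 class II list genes with a promoter sequence, H2-Aa, H2-Eb1 and H2-Oa, and in 6.80% of the 9005 genes compared that have one. The X box core CCNAGNAAC was found in H2-DMb1, H2-Oa and H2-Ob, against 6.45% of all. A match of these letters is a description and not evidence of binding. H2-Oa, which holds both, was at 2.40 FPKM for early EMP, 1.12 for late EMP and 3.43 for fetal HSC.

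**Figure D2:**
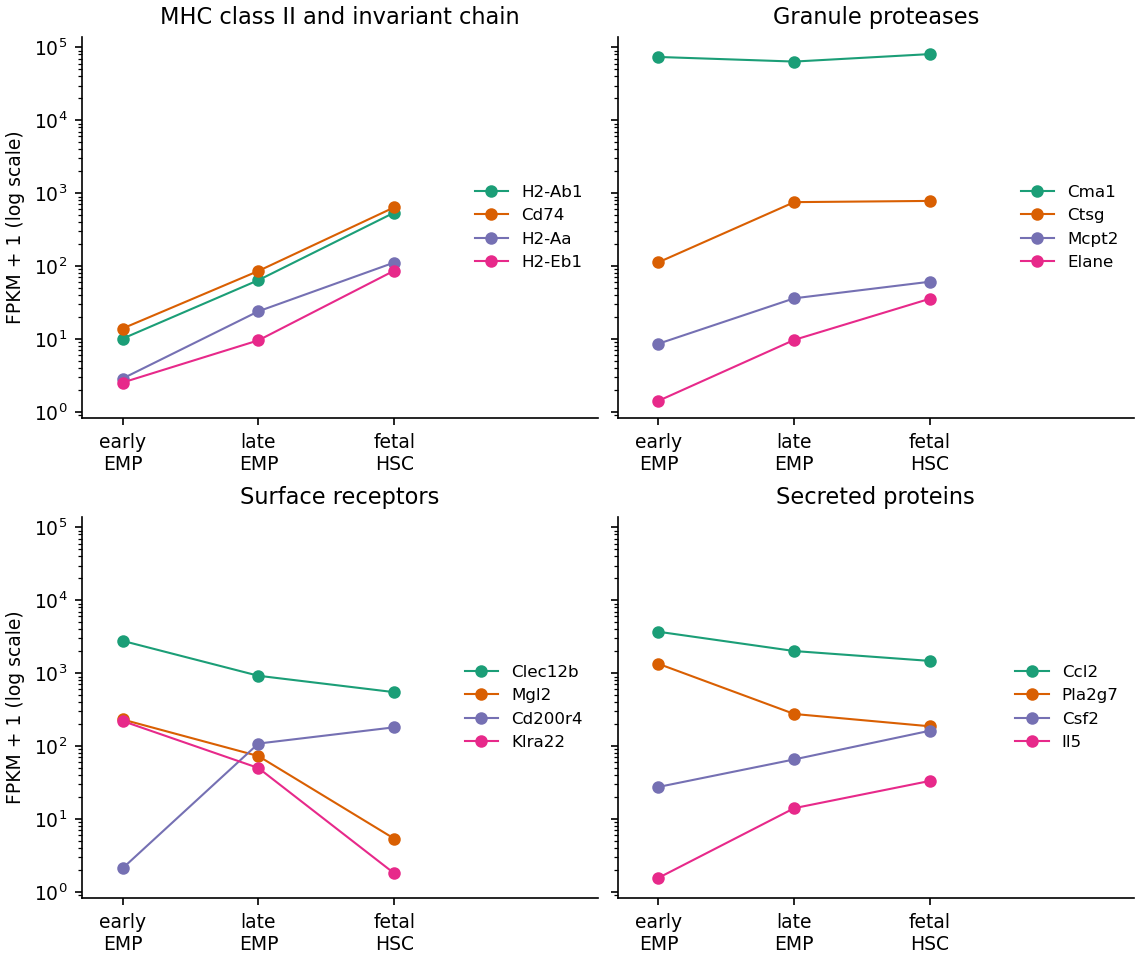
FPKM + 1 on a log scale for 16 genes in the libraries of early EMP, of late EMP and of fetal HSC, 1 each, in 4 panels; lines only join the values of a gene. The 4 class II genes have their highest value in fetal HSC, with H2-Ab1 at 541 FPKM against 9.11, while Mgl2 and Klra22 have their lowest there and Cma1 stays near the top in all 3.

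The proteases of connective tissue mast cell granules were among the most abundant RNAs and lay within 2-fold between the libraries. The chymase gene Cma1 was at 73918 FPKM for early EMP, 63894 for late EMP and 80925 for fetal HSC (0.13). Tpsb2, a tryptase, stood at 79281, 62101 and 62828 FPKM (-0.34), and Cpa3, a carboxypeptidase, at 38942, 37222 and 53824 FPKM (0.47). All 6 measured genes of that list lay within 2-fold, including Mcpt4, Tpsab1 and Tpsg1.

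Other granule proteases differed more, and by count mostly toward fetal HSC. Of 9 measured genes 6 were higher and 2 lower in fetal HSC, with a median of 1.73. Over all genes the shares were 8.34% higher and 8.88% lower. In early EMP 2 of the 10 listed genes stood at 0. Ctsg, cathepsin G (gene 13035, chr14:56099885-56102574), was at 112 FPKM for early EMP, 753 for late EMP and 783 for fetal HSC (2.80). Mcpt2, a chymase of mucosal mast cells (chr14:56021584-56044635), was at 7.62, 35.2 and 60.1 FPKM (2.83). Gzmb, granzyme B (chr14:56258836-56262334), was at 1.79, 13.1 and 27.0 FPKM (3.33). These 3 genes lie in the protease cluster of chromosome 14 that also holds Cma1. Mcpt8, known from basophils, was at 14.5, 17.5 and 35.9 FPKM (1.25). The lower ones were Prss34, a tryptase-like protease also of basophils, at 2386, 459 and 989 FPKM (-1.27), and the chymase gene Cma2 at 116, 64.6 and 57.1 FPKM (-1.01). The sum of these other granule proteases was lower in fetal HSC, at 2653 FPKM in early EMP and 1980 in fetal HSC. Prss34 was the most abundant of them in both. Basophil genes as a list had 2 higher and 1 lower of 13, with a median of -0.05.

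Granulocyte precursors pack primary granules before neutrophils mature. Of 8 measured primary granule genes 4 were higher in fetal HSC and none lower, and those 4 were below 1 FPKM in early EMP, so they were compared through fetal HSC alone. Mpo, myeloperoxidase (gene 17523, chr11:87793784-87804412), was at 0.88 FPKM for early EMP, 39.2 for late EMP and 47.9 for fetal HSC (4.70). Elane, neutrophil elastase (gene 50701, chr10:79886312-79888216), was at 0.42, 8.73 and 34.7 FPKM (4.65). Prtn3, proteinase 3, was at 0.08, 5.38 and 14.4 FPKM (3.83). Ly6c2, a surface marker of monocytes and their precursors, was at 0.18, 2.65 and 20.9 FPKM (4.22). S100a8, a calcium-binding protein of neutrophils, differed from these in late EMP, with 1.30, 0 and 29.0 FPKM (3.70).

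Of the 25 genes of this list 11 were measured, 6 of them higher and none lower, and the median was 2.47. The list summed to 4602 FPKM in early EMP and 4549 in fetal HSC. Of the genes of later granules and the surface, which mark more mature neutrophils, 3 were measured and 2 were higher, with a sum of 28.6 FPKM in early EMP and 68.8 in fetal HSC. In the same group Ltf, Lcn2, Mmp9 and Cxcr2 were below 1 FPKM in both libraries, and Retnlg was listed at 0 in both. Ly6g was listed at 0 in fetal HSC. The protease inhibitor gene Serpinb1a made up most of the list's sum, at 4276 FPKM in early EMP and 4070 in fetal HSC. Whether a small number of precursor cells carried these RNAs was not tested. Genes of stem and progenitor cells had 4 higher and 1 lower of 13 with a median of 0.14, and Cd34 was at 44.5, 41.1 and 44.0 FPKM.

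Cells divide through a programme in which replication genes act in S phase and mitotic genes peak in G2 and M phase, many of the latter through a promoter element called the CHR that the DREAM and MuvB complexes read. Of 57 measured mitosis genes, 41 were higher in fetal HSC, none was lower, and the median was 1.61. By role, 10 of 14 mitotic cyclins and kinases were higher, 9 of 13 kinetochore and passenger complex genes, 18 of 22 genes of the spindle, chromosome structure and cytokinesis, and 4 of 8 genes of anaphase and mitotic exit. Birc5, survivin of the chromosomal passenger complex, was at 4.11 FPKM for early EMP, 33.7 for late EMP and 42.7 for fetal HSC (3.10). Its partner in that complex, Cdca8, was at 3.77, 22.3 and 29.6 FPKM (2.68). The spindle motor gene Kif11 was at 0.18, 7.86 and 9.74 FPKM (3.19). Cdc20, which activates the anaphase-promoting complex, was at 3.63, 22.9 and 29.6 FPKM (2.73). Stmn1, a tubulin-binding protein and the most abundant mitosis gene past 2-fold, was at 68.3, 332 and 283 FPKM (2.03).

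The other 16 mitosis genes lay within 2-fold, 4 in each role. Among them Kif23, a motor of cytokinesis, was at 141 FPKM for early EMP, 124 for late EMP and 139 for fetal HSC (-0.02), far above the other kinesins of the list in all 3. The late EMP values of the genes named above lay nearer to fetal HSC than to early EMP.

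Replication genes differed by less. Of 45 measured, 16 were higher, none was lower, and the median was 0.77. Licensing genes had 6 of 15 higher, genes of polymerases, the sliding clamp and nucleotide supply had 9 of 20, and the cyclins and E2F factors of the G1 to S transition had 1 of 10. Cdt1, a licensing factor, was at 0.15 FPKM for early EMP, 7.74 for late EMP and 6.56 for fetal HSC (2.72). Rrm2, a subunit of ribonucleotide reductase, was at 3.35, 12.9 and 19.4 FPKM (2.23). Pcna, the sliding clamp, was at 93.6, 143 and 151 FPKM (0.68). The one cyclin past 2-fold was Ccne2, at 0.98, 3.35 and 8.55 FPKM (2.27). Of the clustered histone genes, a family chosen after its values were seen, 22 of 36 measured were higher and 1 lower, with a median of 1.11 at a median level of only 2.32 FPKM.

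Cell cycle inhibitors lay mostly within 2-fold, and 2 of 13 were higher. Those were Cdkn1b, the inhibitor p27, at 3.57 FPKM for early EMP, 8.5 for late EMP and 15.8 for fetal HSC (1.88), and Btg2, an antiproliferative factor, at 3.52, 7.71 and 12.3 FPKM (1.55). Cdkn1a, the inhibitor p21, was the most abundant at 215, 222 and 315 FPKM (0.55).

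**Figure D3:**
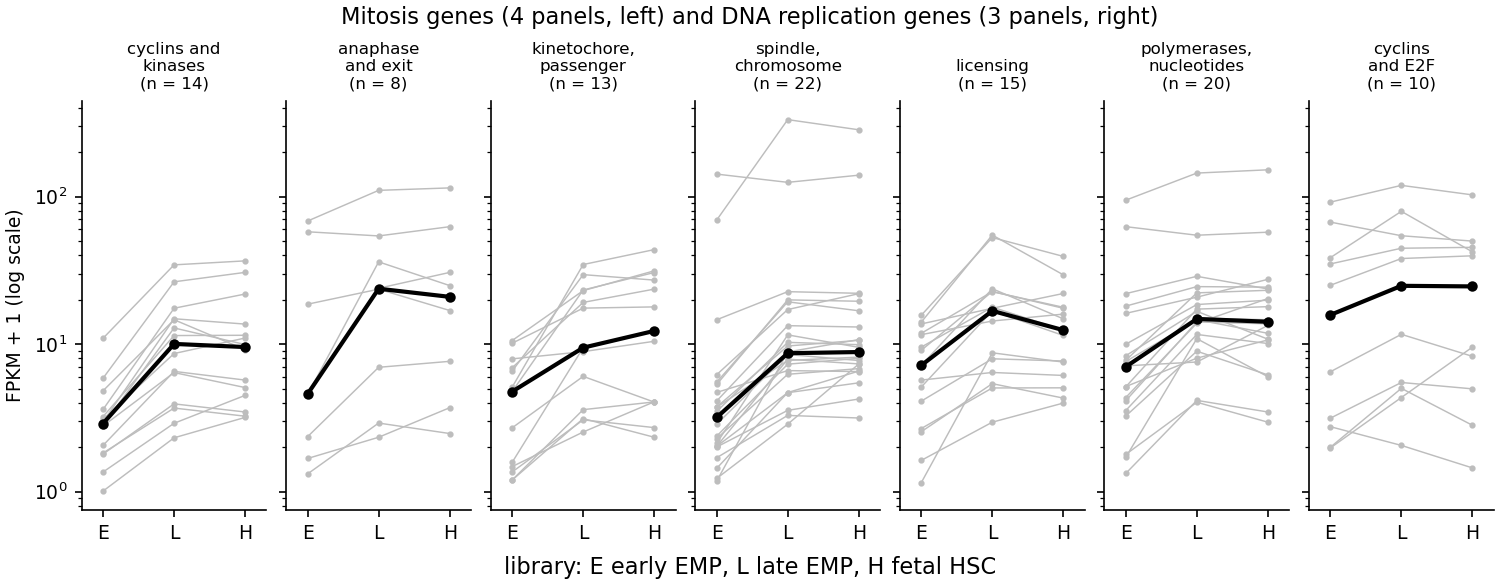
FPKM + 1 on a log scale in the early EMP (E), late EMP (L) and fetal HSC (H) libraries for 57 mitosis genes in 4 role panels and 45 DNA replication genes in 3; grey lines are genes and the black line is the panel's median. Medians are lowest in early EMP in all 7 panels, and the late EMP and fetal HSC medians lie close together.

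The next promoters are shown because Cdc20, Cdca8 and Kif11 were among the 5 most different mitosis genes and hold a CHR, in capitals. They are RefSeq sequences of GRCm38.p6 from 150 bases before the start, at chr4:118437294-118437493 on the minus strand, chr4:124936868-124937067 on the minus strand and chr19:37376232-37376431 on the plus strand. The match begins 18 bases before the start in Cdc20 and 19 bases before it in Kif11, while in Cdca8 it lies just inside the transcript.
Cdc20: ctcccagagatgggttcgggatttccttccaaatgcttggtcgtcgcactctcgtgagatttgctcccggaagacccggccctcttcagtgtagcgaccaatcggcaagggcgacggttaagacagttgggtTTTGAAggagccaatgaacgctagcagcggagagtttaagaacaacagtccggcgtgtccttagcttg
Cdca8: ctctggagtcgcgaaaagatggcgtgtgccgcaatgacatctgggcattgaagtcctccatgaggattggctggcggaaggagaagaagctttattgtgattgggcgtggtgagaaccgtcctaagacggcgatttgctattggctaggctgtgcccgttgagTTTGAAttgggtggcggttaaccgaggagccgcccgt
Kif11: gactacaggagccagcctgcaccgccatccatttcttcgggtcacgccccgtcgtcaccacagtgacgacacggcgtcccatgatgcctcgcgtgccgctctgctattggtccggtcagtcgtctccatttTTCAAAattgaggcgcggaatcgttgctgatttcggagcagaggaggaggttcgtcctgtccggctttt
The letters searched were TTTGAA or TTCGAA on either strand, over 300 bases per start. They were found in 34 of 47 mitosis genes with a promoter sequence (72.3%), and in 16.8% of all 9005 genes compared that have one. Among the mitosis genes past 2-fold, 26 of 34 held a match. Birc5 and Nuf2, also among the 5 most different, held none in their windows. Among all genes at least 2-fold higher in fetal HSC the share was 23.8%, and among those lower it was 18.4%.

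The unfolded protein response raises chaperones of the endoplasmic reticulum when folding is under load, in part through the endoplasmic reticulum stress element (ERSE). Here 4 of 38 measured genes were higher, a share near the 8.34% of all genes, none was lower, and the median was 0.40. Hspa5, the chaperone BiP, was at 275 FPKM for early EMP, 507 for late EMP and 671 for fetal HSC (1.28). Sdf2l1, which acts with BiP, was at 19.8, 30.8 and 50.5 FPKM (1.31). Atf3, a stress transcription factor, was at 6.55, 9.66 and 25.1 FPKM (1.79). The disulfide isomerase Pdia3 lay within 2-fold at 212, 284 and 326 FPKM (0.62). By role, 2 of 18 folding genes, 1 of 9 sensors and transcription factors and 1 of 11 degradation and translocation genes were higher.

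The Hspa5 promoter, at chr2:34771940-34772139 on the plus strand (RefSeq, GRCm38.p6), is shown as the most abundant gene of that list past 2-fold. Capitals mark both ends of an ERSE, which begins 65 bases before the start.
Hspa5: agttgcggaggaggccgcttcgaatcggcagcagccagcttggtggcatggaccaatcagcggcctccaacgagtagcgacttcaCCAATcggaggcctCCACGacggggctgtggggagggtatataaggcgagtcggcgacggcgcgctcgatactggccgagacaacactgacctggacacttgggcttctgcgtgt
The element was searched as CCAAT, then 9 bases of any kind, then CCACG, on either strand. It was found in 10 of 32 genes of the list with a promoter sequence, against 0.167% of all genes compared. Of the 10, Hspa5 and Derl3 were past 2-fold and the other 8, among them Hsp90b1, Pdia6 and Calr, were within it.

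Of 31 measured genes of cholesterol and fatty acid synthesis, 5 were higher and 2 lower, a share not far from the 17.2% of all genes, with a median of 0.58. Fdps, which makes farnesyl diphosphate, was at 12.9, 29.1 and 36.8 FPKM (1.44), and the sterol demethylase gene Cyp51 at 4.64, 5.32 and 14.9 FPKM (1.49). Of 15 heat shock chaperones 3 were higher, among them Hsph1 at 8.44, 25.7 and 29.5 FPKM (1.69) and Dnajb1, a cochaperone, at 271, 658 and 545 FPKM (1.01). For Dnajb1 the late EMP value was the highest of the 3.

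**Figure D4:**
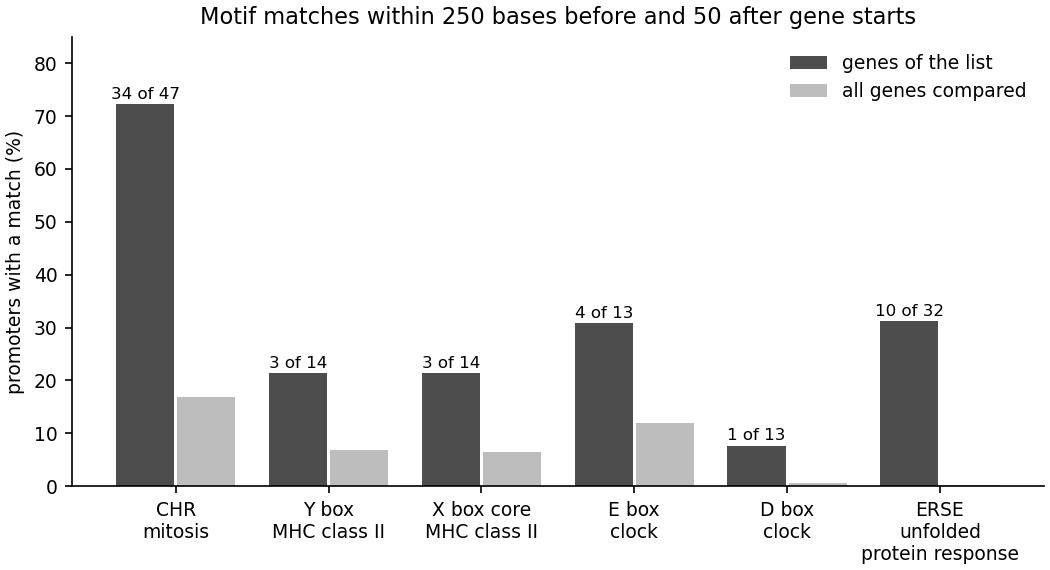
Share of genes (percent) whose RefSeq promoter holds a motif, for the list each motif belongs to (dark bars, with counts) and for all 9005 genes compared that have a promoter (light bars). CHR matches stand in 72.3% of mitosis genes against 16.8% of all, and ERSE matches in 31.2% of unfolded protein response genes against 0.167%.

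Mast cells also signal through secreted cytokines, and 9 of 20 measured cytokine genes were higher in fetal HSC with none lower (median 0.68). Il5, the growth factor of eosinophils (gene 16191, chr11:53720794-53725103), was at 0.56 FPKM for early EMP, 13.1 for late EMP and 32.3 for fetal HSC (4.42). Csf2, which encodes GM-CSF (gene 12981, chr11:54247270-54249899), was at 26.5, 64.7 and 162 FPKM (2.56). Il6 was at 23.2, 78.3 and 96.1 FPKM (2.01). Il4, which promotes IgE responses and lies near Il5 in the type 2 cytokine region of chromosome 11, was at 837, 692 and 856 FPKM (0.03). Osm, oncostatin M, was at 461, 746 and 589 FPKM (0.35).

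Chemokines were split by count, with 7 of 19 measured genes higher and 5 lower, beside 8.34% and 8.88% of all genes. The list's sum was lower in fetal HSC, at 12866 FPKM in early EMP and 6682 in fetal HSC, most of it Ccl7 and Ccl2. Ccl2, which attracts monocytes, was at 3702 FPKM for early EMP, 2013 for late EMP and 1473 for fetal HSC (-1.33). Its relative Ccl7 was at 8661, 3406 and 4487 FPKM (-0.95). Pf4, a chemokine of platelets and some macrophages, was at 46.7, 38.3 and 7.05 FPKM (-2.57). Among the higher ones were Cxcl10, an interferon-induced chemokine, at 1.07, 1.85 and 9.03 FPKM (2.28), and Cxcl2, a neutrophil attractant listed at 0 in early EMP and at 4.74 and 6.4 FPKM in the others. Cxcl2 was compared through fetal HSC alone and could not count as lower.

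Of 7 measured chemokine receptors, 5 were higher, none was lower, and the median was 1.94. The share higher over all genes was 8.34%. Cxcr6, found on tissue-homing lymphocytes, was at 0.48 FPKM for early EMP, 23.1 for late EMP and 18.4 for fetal HSC (3.71). Ccr2, the receptor for Ccl2, was at 0.11, 5.56 and 6.66 FPKM (2.79). The most abundant of them, Ccrl2, which binds chemerin without signalling, was at 988, 437 and 629 FPKM (-0.65). It made up most of the list's sum, 995 FPKM in early EMP and 676 in fetal HSC. Cxcr6, Ccr2 and another receptor gene, Ccr1, were below 1 FPKM in early EMP. They were compared through fetal HSC alone and could not count as lower.

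Among genes at 10 FPKM or more in early EMP or fetal HSC and above 0 in both, and leaving out predicted genes, surface receptors gave the largest difference in each direction. Cd200r4, an activating receptor of the Cd200 receptor family (gene 239849, chr16:44811650-44839150), was at 1.11 FPKM for early EMP, 107 for late EMP and 180 for fetal HSC (6.42). Its relatives differed far less. Cd200r3 was at 385, 434 and 687 FPKM (0.84), Cd200r1, the inhibitory receptor, at 70.2, 72.7 and 65.1 FPKM (-0.11), and Cd200r2 at 2.44, 1.60 and 2.77 FPKM (0.13). Cd200r4 was thus the member that separated early EMP from the other libraries.

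The Klra genes encode lectin-like receptors, known from NK cells, that read MHC class I. Klra22 was at 220 FPKM for early EMP, 49.1 for late EMP and 0.80 for fetal HSC (-6.94). Klra17 (gene 170733, chr6:129831154-129876672) was at 120, 35.0 and 0.43 FPKM (-6.41), and Klra1 at 29.5, 8.47 and 0.04 FPKM (-4.87). Reads may be split between Klra genes that are alike in sequence, and how alike these are was not measured, so their sum is given too. Over 6 Klra genes it was 372 FPKM for early EMP, 93.0 for late EMP and 1.27 for fetal HSC (-7.36). Klra haplotypes differ between mouse strains, the background is mixed, and the part of genotype was not tested.

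C-type lectins showed the same direction, with 6 of 16 measured genes lower and 2 higher. Mgl2, a galactose-binding lectin of macrophages and dendritic cells (gene 216864, chr11:70130125-70137542), was at 231 FPKM for early EMP, 72.0 for late EMP and 4.38 for fetal HSC (-5.43). Clec12b, an inhibitory receptor (gene 71183, chr6:129375513-129427634), was the most abundant of the list at 2778, 921 and 548 FPKM (-2.34). Clec10a, a close relative of Mgl2, lay within 2-fold at 440, 285 and 280 FPKM (-0.65). Going the other way, Clec12a was at 0.13, 1.49 and 5.96 FPKM (2.62).

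Of 32 measured genes of IgE receptor signalling, which sets off degranulation, 1 was higher and 3 lower, against 17.2% of all genes past 2-fold, and the median was -0.32. Stim1, the calcium sensor of the endoplasmic reticulum, was at 41.8 FPKM for early EMP, 29.4 for late EMP and 16.4 for fetal HSC (-1.30). Orai2, a calcium channel subunit, was at 19.8, 16.3 and 8.77 FPKM (-1.09), and Ubash3b, a phosphatase that restrains Syk, at 50.9, 22.1 and 19.6 FPKM (-1.33). Mrgprb2, the receptor for cationic peptides, was at 902, 802 and 755 FPKM (-0.26), whereas its relative Mrgpra6 was at 135, 181 and 39.1 FPKM (-1.77). Exocytosis genes had 1 of 19 past 2-fold, Vamp2, a vesicle SNARE, at 27.1, 16.4 and 10.7 FPKM (-1.26). None of 27 listed oxidative phosphorylation genes passed 2-fold, and their median was 0.05. Outside that list Ndufs5, a subunit of complex I, was listed at 0 in early EMP and stood at 37.5 FPKM in late EMP and 42.5 in fetal HSC.

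**Figure D5:**
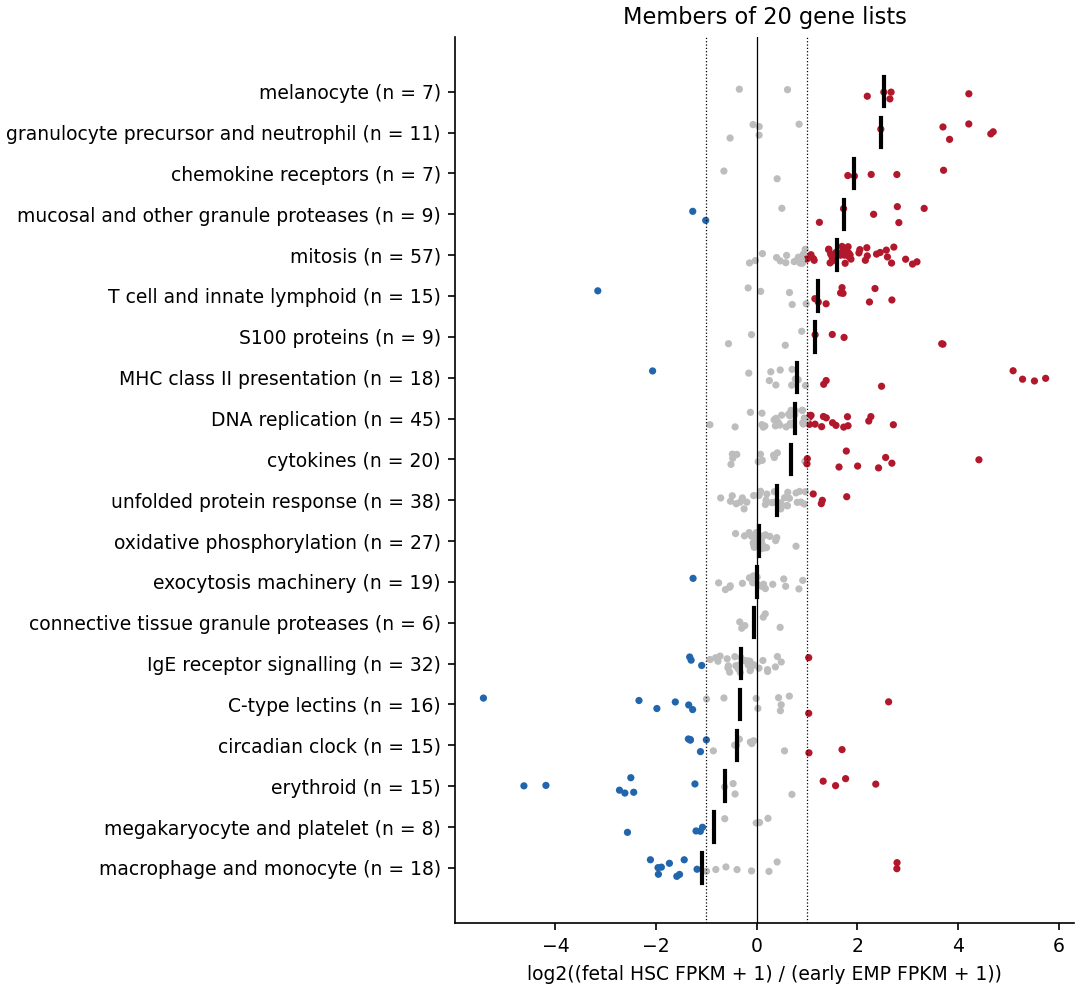
Log2 difference of fetal HSC over early EMP, on the log2(FPKM + 1) scale, for the measured members of 20 gene lists ordered by median; each point is a gene, red at least 2-fold higher, blue at least 2-fold lower, grey within 2-fold, and the black bar is the median. Mitosis genes sit to the right with a median of 1.61 and no blue point, oxidative phosphorylation genes lie between the dotted 2-fold lines, and the macrophage list sits to the left.

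Storage of amines showed 1 difference past 2-fold. Slc6a4, the serotonin transporter, was at 591 FPKM for early EMP, 379 for late EMP and 277 for fetal HSC (-1.09). The histidine decarboxylase gene Hdc was at 3614, 3061 and 3069 FPKM (-0.24), and the proteoglycan core Srgn at 4219, 4706 and 3540 FPKM (-0.25). In lipid mediator genes the directions differed. Pla2g7, which breaks down platelet-activating factor (gene 27226, chr17:43567994-43612202), was at 1344, 275 and 186 FPKM (-2.85). The leukotriene genes Alox5ap and Lta4h, a cofactor and a hydrolase of that pathway, were at 23.8 and 44.2 FPKM in early EMP and at 60.3 and 90.2 FPKM in fetal HSC (1.31 and 1.01).

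Receptors for growth factors and cytokines were mostly within 2-fold, with 4 of 28 measured higher and 3 lower (median 0.26). Il2rg, the shared gamma chain, was at 726, 699 and 961 FPKM (0.40). Tnfrsf18, which encodes GITR, was at 7.91, 13.2 and 20.2 FPKM (1.25), and Crlf2, the receptor chain for TSLP, at 17.5, 14.3 and 7.01 FPKM (-1.21). P2rx1, an ATP-gated channel, was at 216, 149 and 97.4 FPKM (-1.14). Class I presentation had 2 of 23 measured genes higher and none lower, one being the immunoproteasome subunit gene Psmb9 at 11.7, 27.4 and 38.9 FPKM (1.65), while B2m, the class I light chain, was at 1658, 1369 and 1524 FPKM (-0.12). Of 28 lineage transcription factors 2 were higher and 2 lower, and Lyl1, a factor of blood progenitors, was one of the lower ones at 35.7, 28.6 and 15 FPKM (-1.20). Klf2, a factor of quiescent lymphocytes and endothelium, was at 124, 72.7 and 35.7 FPKM (-1.76). Of 25 actin cytoskeleton genes 2 were higher, one of them Tmsb10, a thymosin, at 204, 302 and 417 FPKM (1.03). None of these lists had a median past 2-fold. Over all genes compared 8.34% were higher and 8.88% lower. The counts for class I presentation, lineage factors and actin genes were near or below those shares.

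Single genes of other roles also stood among the 12 largest differences each way, counted by the same limits. Pcp4l1, a small protein related to a calmodulin regulator, was at 2.09 FPKM for early EMP, 86.3 for late EMP and 142 for fetal HSC (5.53). Lsp1, an actin-binding protein of leukocytes, was at 0.74, 13.7 and 41.5 FPKM (4.61). Arg1, arginase 1 of the urea cycle, was at 0.29, 33.0 and 28.8 FPKM (4.53). Plbd1, a phospholipase-like protein of myeloid cells, was at 0.28, 2.47 and 26.0 FPKM (4.40). Among the lower ones, Fbp2, a fructose bisphosphatase known from muscle, was at 87.0, 4.04 and 0.81 FPKM (-5.60), and the zinc finger gene Zfp949 at 93.7, 5.12 and 3.73 FPKM (-4.32). Arg1 had a late EMP value within 2-fold of fetal HSC, while those of Plbd1 and Fbp2 were over 2-fold from both.

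S100 proteins, small calcium binders, had 5 of 9 measured genes higher and none lower (median 1.16). S100a4 was at 2.11 FPKM for early EMP, 83.2 for late EMP and 38.8 for fetal HSC (3.68), and S100a10, the annexin partner, at 143, 616 and 407 FPKM (1.503). Both were highest in late EMP. Bst2 and Ifitm1, both induced by interferon, were at 11.8 and 6.45 FPKM in early EMP and at 60.1 and 35.0 FPKM in fetal HSC (2.26 and 2.27). The interferon list as a whole was mixed, with 5 of 24 higher, 4 lower and a median of -0.25. Cd83, an activation marker and target of NF-kB, was at 2.74, 5.82 and 17.9 FPKM (2.34), the only 1 of 14 NF-kB feedback genes past 2-fold.

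Some genes of lymphoid cells were higher, many at low levels. Of 26 genes of T cells and innate lymphoid cells 15 were measured, 9 of them higher and 1 lower (median 1.23). Over all genes compared 8.34% were higher. By role, 2 of 4 T cell receptor complex genes were higher and 1 lower, and 7 of 11 innate lymphoid genes were higher. The list's sum was 586 FPKM in early EMP and 669 in fetal HSC. Most of that sum was Id2, at 538 and 569 FPKM (0.08). Areg, at 0.06 and 5.83 FPKM, was compared through fetal HSC alone and could not count as lower. Icos, a costimulator, was at 9.42 FPKM for early EMP, 21.6 for late EMP and 23.4 for fetal HSC (1.23). Cd3g, a chain of the T cell receptor complex, was at 1.55, 5.36 and 12.02 FPKM (2.35), while its partner Cd3e was at 13.5, 0 and 0.63 FPKM (-3.16). Other T cell genes, Cd3d, Cd247, Zap70 and Cd4, were below 1 FPKM in both libraries, and Cd5 was listed at 0 in both. Nkg7, a granule membrane protein of cytotoxic cells, was the most abundant gene of the NK cell list at 112, 117 and 308 FPKM (1.45).

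Pigment cell genes were also mostly higher. Of 14 listed 7 were measured and 5 of them were higher, beside 8.34% of all genes, with a median of 2.53. Mlana, a melanosome protein, was listed at 0 in early EMP and was at 2.23 FPKM in late EMP and 17.6 in fetal HSC. Pmel, the fibre protein of melanosomes, was at 1.05, 6.4 and 12.1 FPKM (2.67), and Dct, an enzyme of melanin synthesis, at 0.15, 3.63 and 6.21 FPKM (2.65). Mlana and Dct were compared through fetal HSC alone and could not count as lower. The lineage factor Sox10 was at 0 and 0.39 FPKM in the 2 libraries, and Mitf, which mast cells also express, at 30.2 and 23.6 FPKM. The list summed to 34.1 FPKM in early EMP and 81.2 in fetal HSC. Keratinocyte and fibroblast lists had 3 and 2 measured genes, with Krt5, Krt14 and Col1a1 below 1 FPKM in both libraries. The part of melanocytes or lymphoid cells in these differences was not tested.

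Macrophage genes went in the other direction. Of 30 listed 18 were measured, 9 of them lower in fetal HSC and 2 higher (median -1.09), and their sum was 3712 FPKM in early EMP and 3404 in fetal HSC. C1qb, a chain of complement C1q, was at 20.4 FPKM for early EMP, 13.3 for late EMP and 3.96 for fetal HSC (-2.11), and its companions C1qa and C1qc had differences of -1.96 and -1.95. The higher ones were Ccr2, given above, and Aif1, a calcium-binding protein of macrophages, at 2.04, 3.88 and 20.03 FPKM (2.79). Apoe, a lipid carrier, dominated the list at 3449, 2608 and 3214 FPKM (-0.10). The macrophage receptor genes Adgre1, Cd163 and Mertk were below 1 FPKM in both libraries, and the part of macrophages in these values was not tested.

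Globin genes were all lower, 7 of 7 measured, beside 8.88% of all genes. Hba-a1, an alpha globin, was at 124 FPKM for early EMP, 7.95 for late EMP and 5.85 for fetal HSC (-4.19). The beta globin Hbb-b1 was at 23.7 FPKM in early EMP and listed at 0 in fetal HSC. The beta globins Hbb-b1, Hbb-b2 and Hbb-bt were below 1 FPKM in fetal HSC. They were compared through early EMP alone and could not count as higher. Globin copies are near-identical, and their sums were 154, 10.1 and 9.58 FPKM for alpha and 61.1, 5.17 and 4.24 FPKM for beta. The background is mixed, and the part of genotype in the globin values was not tested. Of 8 other erythroid genes, 4 were higher and none lower. One of these was Tfrc, the transferrin receptor, at 1.98, 8.57 and 7.84 FPKM (1.57). Platelet genes had 4 of 8 lower, with Itga2b, the integrin of platelets, at 25.0, 17.4 and 10.95 FPKM (-1.12).

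Clock genes form a loop in which Clock and Arntl activate the Per, Cry and Nr1d repressors. Of 15 measured, 5 were lower and 2 higher, with a median of -0.40. The shares over all genes were 8.88% lower and 8.34% higher. The activator Arntl was at 5.30 FPKM for early EMP, 5.61 for late EMP and 1.46 for fetal HSC (-1.36), while Clock was at 5.57, 5.15 and 5.14 FPKM (-0.10). Rora, also listed as an activator, was higher at 0.24, 3.06 and 3.02 FPKM (1.70) and was compared through fetal HSC alone. Of 9 measured repressors 3 were lower. Cry2 was at 10.1, 9.85 and 4.10 FPKM (-1.12) and Ciart at 5.56, 4.35 and 1.63 FPKM (-1.32). Nr1d1, compared through early EMP alone and so unable to count as higher, was at 2.54, 1.03 and 0.42 FPKM (-1.32). The other 6 lay within 2-fold, among them Per1 (-0.34), Per2 (-0.44), Cry1 (-0.06) and Bhlhe40 (0.55). The output factor Dbp stood exactly at 2-fold, at 7.88, 4.02 and 3.44 FPKM (-1.0). Nfil3, which opposes Dbp at the same sites, was higher at 15.9, 21.5 and 33.8 FPKM (1.04). The sources used here do not give the hour of tissue collection. An E box CACGTG was found in 4 of 13 clock genes with a promoter sequence, against 1085 of the 9005 genes, and a D box TTATGTAA in Per3 alone.

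Some of the largest single-gene differences belong to near-identical copies between which reads may be split, and several fell within 2-fold in the sum. The ribosomal gene Rps27rt was listed at 0 in the early and late EMP libraries and at 369 FPKM in fetal HSC. Summed with Rps27 it came to 933, 831 and 752 FPKM (-0.31). Rpl34-ps1 was at 212, 139 and 7.83 FPKM, and its sum with Rpl34 was 326, 347 and 331 FPKM (0.02). The class I gene H2-L was at 75.1, 197 and 1.05 FPKM, and its sum with H2-D1 was 918, 1348 and 664 FPKM (-0.47). Tmem254c and Tmem254b pointed in opposite ways, and the Tmem254 sum stayed past 2-fold at 27.5, 70.7 and 67.8 FPKM (1.27). Gapdh, a glycolytic enzyme with many processed pseudogenes, was at 68.9, 295 and 287 FPKM (2.04), and no sum with its copies was made. By contrast the 3 Bcl2a1 copies, which encode a survival protein, summed to 1.77, 3.39 and 22.4 FPKM (3.08).

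The late EMP library shares the driver line with fetal HSC and the day of the pulse with early EMP. Of the 931 genes higher in fetal HSC than in early EMP, the late EMP value lay between the 2 in 707, above both in 187 and below both in 37. Late EMP stood with fetal HSC, at least 2-fold above early EMP and within 2-fold of fetal HSC, for 417 of these genes, among them Mpo and Ctsg. It stood with early EMP for 157, among them Cd83. Of the 991 lower genes, the late EMP value lay between in 800, with 288 standing with fetal HSC and 240 with early EMP. These counts use the early EMP and fetal HSC values a second time and are a description only.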

How the data were processed

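Per the labels' protocols, TRIzol RNA of the sorted cells was sequenced at BGI on an Illumina HiSeq. The authors deposited FPKM values with 2 decimals per gene, per the file headers. The submitters' processing notes name Bowtie2, RSEM, mm10 and GRCm38, with no versions. The sources used here give no filters and no pooling. FPKM is a share, so a few abundant genes affect all others. Of 17613 genes with a symbol, 17569 matched RefSeq on GRCm38.p6, the source of coordinates and promoters, and 22 symbols turned into dates were restored from the gene identifier. No column of another sample was present.

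Differences are log2((fetal HSC FPKM + 1) / (early EMP FPKM + 1)), counted at 2-fold and 4-fold, ties included. The counting step was tested on simulated data. Depth was implied from whole-fragment steps; 79.2% (early EMP), 81.3% (late EMP) and 72.4% (fetal HSC) of values lay within tolerance, against 30% by chance for a fixed step, and the step was fitted on those values.

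The members and the 62 gene lists were chosen with earlier results of these data known. Named genes are the 12 largest differences each way at 10 FPKM or more, up to 6 each way listed at 0, in each list the 2 with the highest level and, from 5 FPKM, the 5 with the largest difference, and small families in full; predicted genes are left out. Family sums, histones and marker genes outside this rule were picked after their values were seen. The results were recomputed with 0.1 or 5 FPKM added, without a filter, with a filter at 5 FPKM and under 3 rescalings. Python 3.11.15, numpy 2.4.6, pandas 2.3.3 and matplotlib 3.10.9 were used. Values of 2 named genes are not reported here.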

Additional observations from a re-analysis of the deposited data

Results flagged for a closer look

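The comparison leaves out the 3064 entries without a symbol. Of these, 2465 had at least 1 FPKM in the early EMP or fetal HSC library; 250 had a fetal HSC value of 2-fold or more above early EMP and 1577 had one of 2-fold or more below it. At 1 FPKM or more were 2130 of them for early EMP, 1074 for late EMP and 765 for fetal HSC. They were flagged because the comparison does not use them. The sources used here do not say how these regions were defined.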

How the results depend on the processing

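No paired analysis was possible because each group has 1 library, and for the same reason no library could be left out. Counts moved most with the pseudocount and the filter. With 0.1 FPKM added, 1515 genes were at least 2-fold lower, and 1143 were at least 4-fold apart (576 higher, 567 lower). With 5 FPKM added, 394 were at least 2-fold apart (242 higher, 152 lower) and 63 at least 4-fold apart (37 higher, 26 lower). With the filter at 5 FPKM, 941 were at least 2-fold apart (477 higher, 464 lower). The other counts, and all of them under the 3 rescalings and without a filter, stayed within 1.5 times. The higher genes were 48.4% of those past 2-fold, 44.5% after rescaling without the 50 most abundant genes and 61.4% with 5 FPKM added. The median over all genes was between -0.09 and -0.02 under every setting. Of 283 named genes allowed by the rule, 222 kept their side of 2-fold wherever they could be compared; 54 dropped under it with 5 FPKM added. Of 61 list medians, 43 moved by less than 1.5-fold under every alternative. The keratinocyte median, 1.09 over 3 genes, turned to -0.025 without a filter.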
